A study of Astyanax mexicanus with 96 samples.

Results

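Surface fish (SF) and Pachón cavefish (PC) hearts were compared 3 days after a sham operation. The comparison rests on 10 of the 96 libraries of the series: 5 ventricles of SF, a sighted river-dwelling population of the Mexican tetra, Astyanax mexicanus, and 5 ventricles of PC, a blind population of the same species from the Pachón cave. All 10 fish were 2-year-old, age-matched animals without any engineered allele, and were kept at the same temperature under the same light and dark cycle. In each fish the chest was opened under anaesthesia and a probe at room temperature was held to the tip of the ventricle, so that both groups share the surgery and neither was cryo-injured. Hearts were collected 72 h later (3 dps, days post sham). Members were chosen by the population, treatment and time in the sample labels alone. Sex, family and the time of day of collection are not given in the sources used here. The wider study also holds uninjured hearts (n = 3 SF and 3 PC) and 5 SF and 5 PC hearts at each of 8 further times after sham or cryo-injury, up to 30 days (hps stands for hours post sham, hpci for hours and dpci for days after cryo-injury).

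The populations differ in cardiac repair, which restores muscle in surface fish and ends in scar tissue in Pachón cavefish, and the sham operation separates the response to surgery from the response to dead muscle. The ventricle of a fish is a spongy wall of cardiomyocytes lined by endocardium and covered by epicardium. Cavefish evolved without daylight and with scarce food, and altered circadian rhythms and insulin resistance are known traits of the Pachón population.

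Read counts came from the 3′ ends of transcripts, and levels are given as counts-per-million values (CPM), with the size of each library scaled by its TMM factor. Reads of both populations were aligned to a surface fish genome, so for a gene that is near 0 in PC, less transcript and fewer aligned reads cannot be told apart. In whole ventricles, fewer cells of a type and less RNA per cell cannot be told apart either. The 5 values of a gene are given for replicates 1 to 5 in turn, means carry the SD, and log2 fold changes are SF over PC and carry a standard error. This standard error is the size of the log2 fold change divided by the square root of the F value of the edgeR test described next. Genes with a Benjamini-Hochberg adjusted p under 0.05 in the quasi-likelihood test of edgeR and a fold change above 2 are termed called, and every adjusted p is from this test. Because the model holds a further term (the factor described with the counts of calls), a fitted fold change can differ from the ratio of the means printed with it, and in sign for c1qb, grn1 and pfn1. The sources used here do not say from which tanks or families the fish came, so p-values measure the spread between single hearts. This spread was estimated from a fit of all 96 libraries in 20 groups, so it is not that of the compared hearts alone.

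Total counts per library ran from 1597237 to 1957148 in SF and from 1673388 to 2276038 in PC. A population score was taken as the mean log2(CPM + 1) of 69 genes called higher in SF in all 9 other conditions minus that of 67 genes called lower there. It was 2.28 to 2.57 in the SF libraries and −3.06 to −2.25 in the PC libraries, so every library matched its label. Cardiomyocyte markers summed to 36019 to 51570 CPM in SF and 30762 to 68075 CPM in PC, with myl7, the light chain that defines heart muscle in fish, at 19483 ± 3358 CPM in SF and 16961 ± 6924 CPM in PC.

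**Figure D1:**
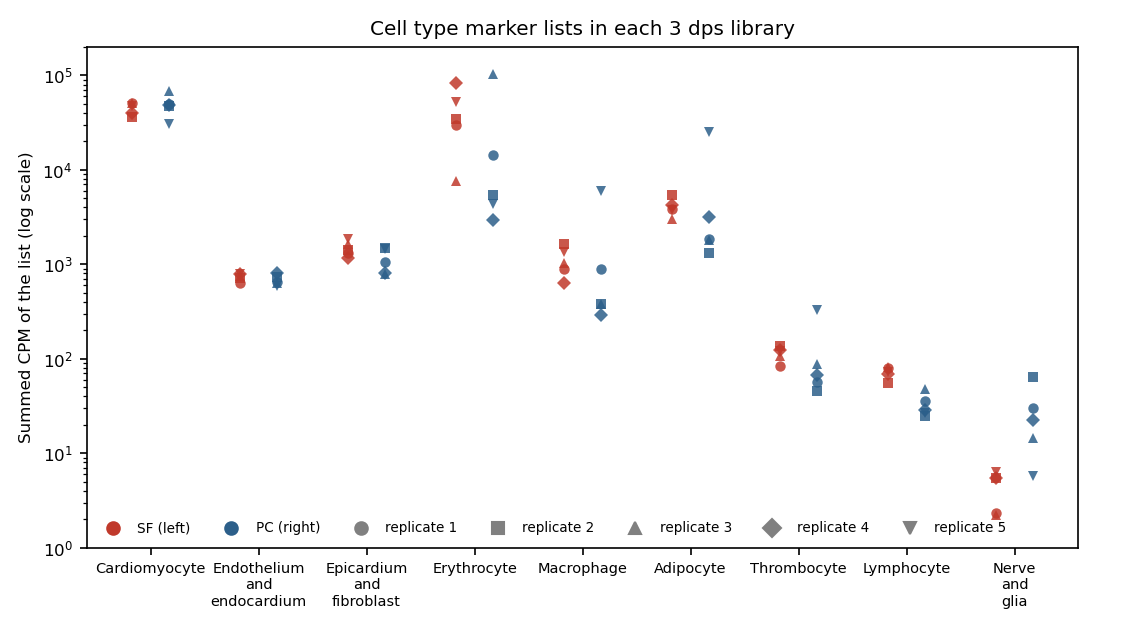
Summed CPM of 9 lists of cell type markers in each library (vertical axis, log scale), with SF at left and PC at right of each pair and 1 symbol per replicate number. Cardiomyocyte and endothelial sums overlap between the populations, PC replicate 3 stands above the rest for erythrocyte genes at 102514 CPM, and PC replicate 5 stands above the rest for macrophage genes at 5942 CPM and adipocyte genes at 25228 CPM.

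Markers of other cells differed mostly in single hearts. Erythrocyte genes summed to 102514 CPM in PC replicate 3, against 2952 to 14386 CPM in the other PC hearts and 7532 to 82294 CPM in SF. In PC replicate 5, macrophage genes summed to 5942 CPM, against 288 to 902 CPM in the other 4 PC hearts and 634 to 1653 CPM in the SF hearts, and thrombocyte and adipocyte lists were highest there too, at 328 and 25228 CPM. SF replicate 4 held transcripts of skeletal muscle: pvalb4 was at 416 CPM there and at 3.87 to 7.95 CPM in the other SF hearts. The source of these transcripts was not tested. These 3 hearts were also left out together. Of 110 named genes, 16 were then no longer called at 3 dps: 1 HBE1 copy, NME2, cdh5, cmlc1, col1a2, cox5b2, cry4, dbpa, dnaja1, dnajb1b, lpl, mt2, mylpfa, ppdpfa, tnni1d and uqcrc2a. Lymphocyte markers summed to 55.2 to 82.7 CPM in SF and 24.8 to 47.9 CPM in PC, without overlap. Of 20 measured lymphocyte markers 1 was called, higher in SF (5%, against 6.68% of all genes). Nerve and glia markers summed to 2.23 to 6.25 CPM in SF and 5.72 to 63.8 CPM in PC. The PC sums, 27.2 CPM on average, were largely those of galn, which averaged 20.5 CPM there and had no read in SF.

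Of 18763 genes tested, 1254 (6.68%) were called at 3 dps, of which 660 (3.52%) were higher and 594 (3.17%) lower in SF. The model holds 1 factor of unwanted variation (RUVg, estimated on genes of low variation across all 96 libraries), and this factor did not overlap between the groups, at −0.00231 to 0.0740 in SF and −0.139 to −0.0400 in PC. The factor and the population therefore cannot be told apart in these 10 hearts, and counts of calls are given with and without it. Fold changes are from the fit with the factor, and a gene named as called was called in the same direction without it unless this is said otherwise. Without the factor 1295 genes (6.90%) were called, 573 higher (3.05%) and 722 lower (3.85%) in SF. Both fits shared 769 calls of the same direction (4.10% of genes tested), 362 higher (1.93%) and 407 lower (2.17%) in SF, and the text leads with these. Among the 769, 537 had 10 libraries without overlap between SF and PC, whereas 1143 of all genes (6.09%) had none. The median log2 fold change was 0.03 over all genes and 2.46 in absolute value over the 769, of which 311 exceeded 8-fold. Leaving out SF replicate 4, PC replicate 3 and PC replicate 5 together gave 1036 calls, 529 higher and 507 lower, which held 571 of the 769 genes.

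**Figure D2:**
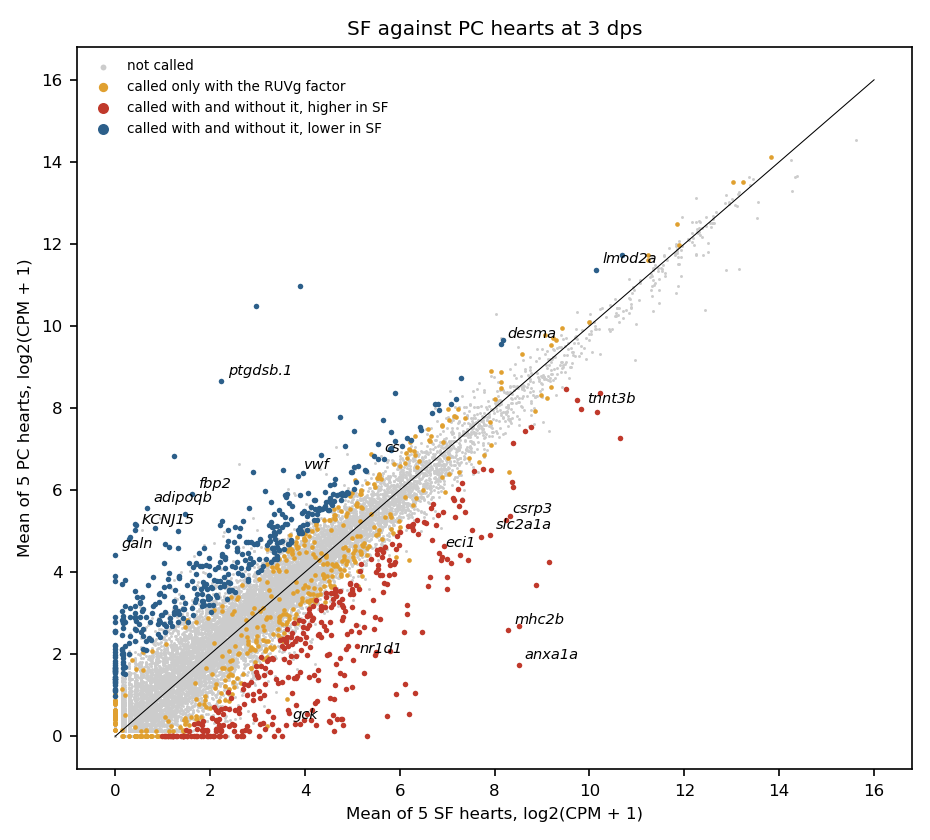
Mean level of each tested gene in 5 SF hearts (horizontal axis) and 5 PC hearts (vertical axis), both as log2(CPM + 1), with the line of equal levels. Red and blue points are the 362 genes higher and the 407 genes lower in SF that were called with and without the RUVg factor, orange points the genes called only with it, and most of the coloured points of large difference lie at low levels in 1 population.

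Genes of antigen presentation were among the largest differences in favour of SF. mhc2b, the beta chain of a class II receptor that shows peptides to T cells (chromosome 6, 30614059 to 30625643), had 136, 229, 339, 533 and 313 CPM in SF hearts, against 5.05, 6.08, 6.93, 4.44 and 2.64 CPM in PC hearts. The lowest SF heart was above the highest PC heart by a wide margin, and the log2 fold change was 7.05 ± 0.75 (edgeR quasi-likelihood, adjusted p = 1.5e-12; 5.95 without the factor). HLA-DQA2, the matching alpha chain, on an unplaced scaffold, had 208, 295, 386, 575 and 352 CPM in SF and 7.30, 3.04, 5.67, 7.78 and 3.52 CPM in PC, with a log2 fold change of 6.98 ± 0.79. The order of the 5 SF hearts was the same for both chains. mhc1uba, a class I heavy chain, averaged 34.1 ± 14.9 CPM in SF and 4.84 ± 9.48 CPM in PC, where replicate 2 alone was at 21.8 CPM (4.74 ± 0.96). It was not called without the factor and the 3 hearts named above (adjusted p = 0.29).

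Other genes of the class II family did not follow this pattern. Another mhc2b copy on chromosome 6 (30341171 to 30350479) had 18.5, 0.552, 0, 0 and 0 CPM in SF and 0.561, 1.01, 0, 87.2 and 54.1 CPM in PC, and the chromosome 6 copy of HLA-DQA2 had 31.6, 2.21, 9.50, 12.7 and 8.52 CPM in SF and 25.8, 12.7, 21.4, 184 and 47.9 CPM in PC. Both copies overlapped between the populations, were read in some hearts of each, and were not called (adjusted p = 0.24 and 0.23). cd74a, the invariant chain that guards the class II groove, averaged 430 ± 62.9 CPM in SF and 606 ± 109 CPM in PC. Its 5 SF hearts were all below its 5 PC hearts, but the log2 fold change of −0.19 ± 0.30 was not called. Of 21 measured genes of the antigen presentation list 3 were called (14.3%, against 6.68% of all genes), all higher in SF. Without the factor 3 were higher and 1 lower. The list had a median log2 fold change of −0.31 (0.00 without the factor). Since the copies are near relatives, and since the treatment of reads that match several genes is not stated, levels of single copies are uncertain.

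Further immune genes were called in both directions. nkl.3, an NK-lysin, a killer-cell peptide that lyses microbes, had 23.9, 21.5, 55.9, 39.9 and 43.7 CPM in SF and 1.68, 0.506, 5.67, 0 and 1.76 CPM in PC (4.77 ± 0.65, adjusted p = 1.6e-08). ccl25b, a chemokine that draws T cells in mammals, had 73.1, 175, 208, 195 and 176 CPM in SF and 55.0, 37.0, 27.1, 54.4 and 41.8 CPM in PC (2.72 ± 0.32). Neither gene overlapped between the populations. BTN2A1, a butyrophilin and 1 of 9 genes with this symbol, averaged 26.5 ± 13.2 CPM in SF and 0.349 ± 0.320 CPM in PC (5.98 ± 0.74). il2rga, the common gamma chain of interleukin receptors, averaged 19.2 ± 8.05 CPM in SF and 7.48 ± 3.12 CPM in PC (2.23 ± 0.43), with overlap. Without the factor and the 3 hearts named above its adjusted p was 0.066. rsad2, which encodes the antiviral protein viperin, was the 1 called gene of 39 interferon response genes (2.56%, against 6.68% of all genes). In the fit without the factor 1 gene of the list was higher and 1 lower. rsad2 had 86.2, 2.21, 10.1, 6.05 and 5.11 CPM in SF, where replicate 1 held most of the signal, and 0, 0, 0, 0 and 1.32 CPM in PC (7.05 ± 1.6, adjusted p = 0.0013). In the opposite direction, IL22RA2, the soluble decoy receptor of interleukin 22, had 0, 0.552, 0, 0.605 and 0 CPM in SF and 29.8, 25.3, 29.0, 30.0 and 20.7 CPM in PC (−7.10 ± 0.59, adjusted p = 1.1e-17), and il13ra1, a chain of the interleukin 13 receptor, averaged 1.34 ± 0.516 CPM in SF and 6.82 ± 3.39 CPM in PC (−2.09 ± 0.58; adjusted p = 0.052 without PC replicate 4).

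Over 82 measured chemokines, interleukins and receptors 8 were called higher and 2 lower in SF with the factor (12.2%, against 6.68% of all genes). The counts were 4 and 6 without it and 2 and 2 in both fits, so the balance turned with the factor. Without the 3 hearts named above and with the factor, 3 were higher and 2 lower. The 22 complement and acute phase genes gave 6 higher and none lower with the factor (27.3%, against 6.68% of all genes). There were 3 higher and 1 lower without it, and 2 higher in both fits, c7b and c1s. c7b, a component of the membrane attack complex, averaged 7.31 ± 3.47 CPM in SF and 0.223 ± 0.306 CPM in PC (5.35 ± 0.98). c1s, the protease that starts the classical complement pathway, averaged 3.38 ± 0.851 CPM in SF and 0.326 ± 0.305 CPM in PC (3.69 ± 0.90). The remaining calls of these lists, il6r, IL10RA, il17rel, ccr7, cxcr2, cxcl12a, both cfb genes, c1qb and c1qc, were made only with the factor.

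anxa1a, an annexin that resolves inflammation in mammals, had 577, 187, 180, 338 and 528 CPM in SF hearts, against 3.93, 1.52, 2.52, 1.11 and 2.64 CPM in PC hearts. No PC heart exceeded 4 CPM, and the log2 fold change was 7.57 ± 0.82 (adjusted p = 3.2e-12; 7.23 without the factor). Another copy on the same unplaced scaffold had 115, 128, 116, 128 and 206 CPM in SF and 93.2, 71.4, 20.8, 131 and 237 CPM in PC, which overlapped and was not called (adjusted p = 0.13). The populations thus differed in the copy at 34450 to 50344 of that scaffold and not by the test in the copy at 54466 to 77986. The difference between the copies was not tested.

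Several genes were read almost only in 1 population. At most 3 reads in each PC heart and a mean of at least 10 CPM in SF were found for 25 genes, of which 24 were called in both fits. The reverse held for 23 genes, of which 19 were called in both fits. These genes were chosen on the same hearts as the calls, so the calls among them are no separate evidence. For some of them 1 heart held most of the signal. In SF, smyhc2 averaged 27.0 CPM (0 to 134) and myl10 12.8 CPM (0 to 62.3). In PC, lrata averaged 26.2 CPM (0 to 127) and EGR2 11.2 CPM (0 to 53.6). ccdc17, a coiled-coil protein, had 67.8, 33.1, 60.3, 32.1 and 0.568 CPM in SF and no read in any PC heart. With each PC library set to 3 reads, it was at least 24.0-fold higher in SF. galn, the precursor of the neuropeptide galanin, had no read in any SF heart and 25.8, 55.7, 5.04, 12.8 and 3.08 CPM in PC, at least 11.2-fold lower in SF by the same rule. Both genes varied widely within the population that expressed them, and SF replicate 5 held 1 read of ccdc17. Other genes near 0 in PC were ENDOD1 (an endonuclease domain protein, 2 of 8 copies), akr1b1.1 (of the aldose reductase family), aoc2 (an amine oxidase) and cbln17 (a C1q domain protein). aoc2 averaged 17.7 ± 5.04 CPM in SF and 0.214 ± 0.293 CPM in PC (5.8 ± 0.90), and cbln17 averaged 52.4 ± 55.8 CPM in SF and 0.400 ± 0.555 CPM in PC (8.53 ± 1.13). akr1b1.1 had 14.6, 24.9, 21.8, 29.7 and 26.7 CPM in SF and 1 read in all 5 PC hearts (7.14 ± 0.80). ENDOD1 had 31.6, 53.6, 19.0, 172 and 84.7 CPM in SF and 0.561, 0.506, 1.26, 0 and 0 CPM in PC for the first copy (9.0 ± 0.88) and 12.3, 45.3, 25.1, 17.6 and 29.5 CPM in SF and 1.68, 0, 0, 0 and 0 CPM in PC for the second (7.81 ± 0.92).

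Genes near 0 in SF included sult1st2 (a sulfotransferase), tdrd1 (a Tudor protein of the germline piRNA pathway) and KCNJ15 and adipoqb, described with their groups. sult1st2 had 0, 0, 1.12, 0 and 0.568 CPM in SF and 21.9, 43.6, 37.2, 35.5 and 37.4 CPM in PC (−6.36 ± 0.53, adjusted p = 1.1e-17), and tdrd1 averaged 0.112 ± 0.25 CPM in SF and 12 ± 5.36 CPM in PC (−6.72 ± 0.76). ptgdsb.1, a prostaglandin D synthase of the lipocalin family, had 6.93, 1.1, 2.79, 6.05 and 1.70 CPM in SF and 276, 326, 423, 608 and 379 CPM in PC (−8.17 ± 0.61, adjusted p = 2.6e-20). It was the smallest adjusted p of the named genes lower in SF. mycbp, a binding partner of the Myc protein, averaged 1.36 ± 1.02 CPM in SF and 113 ± 39.4 CPM in PC (−6.83 ± 1.17), and emp2, a small membrane protein, averaged 1.79 ± 1.36 CPM in SF and 41.6 ± 15.9 CPM in PC (−4.78 ± 0.47). None of these genes overlapped between the populations. The deposited gene models of galn, IL22RA2, mycbp, emp2 and ptgdsb.1 overlap another gene, and it is not stated whether counting used the strand, so reads of their neighbours cannot be told apart.

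Of 35 measured glycolysis genes 2 were called (5.71%, against 6.68% of all genes), slc2a1a and pfkpa, both higher in SF with and without the factor. The median log2 fold change of the list was −0.10 (0.10 without the factor). The called genes gck and fbp2, described below, were not on that list. slc2a1a, the glucose transporter GLUT1, had 264, 278, 251, 131 and 266 CPM in SF hearts, against 21.9, 28.9, 52.3, 30.5 and 11.9 CPM in PC hearts (2.22 ± 0.28, adjusted p = 8.6e-10; 3.04 without the factor). gck, glucokinase, which phosphorylates glucose and is best known from the liver and the pancreas, had 13.1, 10.5, 14.5, 9.68 and 7.95 CPM in SF and 0, 0.506, 0, 0.555 and 0 CPM in PC (5.41 ± 0.83). Neither overlapped. pfkpa, a phosphofructokinase, averaged 75.3 ± 29.2 CPM in SF and 34.3 ± 12.8 CPM in PC, with overlap (1.1 ± 0.29), and was under 2-fold without SF replicate 1, PC replicate 1 or PC replicate 3 (0.94 to 0.99). fbp2, the muscle fructose-1,6-bisphosphatase, which runs the opposite step to phosphofructokinase, had 2.31, 2.21, 1.12, 2.42 and 2.27 CPM in SF and 69.0, 95.7, 48.5, 24.4 and 56.3 CPM in PC (−4.90 ± 0.57, adjusted p = 7.9e-11).

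An insulin adaptor and an adipokine gene lay the other way. irs2b, an adaptor that links the insulin receptor to its kinases, had 0.770, 1.1, 0, 3.03 and 1.14 CPM in SF and 19.6, 17.2, 12, 40.0 and 27.7 CPM in PC (−4.62 ± 0.82, adjusted p = 1.7e-05). adipoqb, a gene of the adipokine adiponectin, had 0.770, 0.552, 1.12, 0 and 0.568 CPM in SF and 44.9, 53.7, 69.3, 50.0 and 13.2 CPM in PC (−6.57 ± 0.55, adjusted p = 3e-17). Its level in PC replicate 5, the heart rich in adipocyte markers, was the lowest of the 5 PC hearts. igf1ra and igfbp6b were called lower and AKT1 higher in SF only with the factor. Thus irs2b was the 1 call in both fits among 23 measured genes of insulin and growth factor signalling. With the factor 1 of these was higher and 3 lower (17.4%, against 6.68% of all genes), and without it 1 and 1.

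Genes of fatty acid uptake and oxidation were called in both directions. eci1, a mitochondrial enoyl-CoA isomerase that prepares unsaturated fatty acids for oxidation, had 166, 119, 87.7, 113 and 80.1 CPM in SF and 23.6, 21.3, 22.7, 22.8 and 15.4 CPM in PC (1.83 ± 0.26, adjusted p = 6.7e-08). eci2, an isomerase of the same reaction, had 77.8, 50.8, 46.9, 53.9 and 64.8 CPM in SF and 128, 130, 176, 167 and 124 CPM in PC (−1.82 ± 0.23, adjusted p = 1.4e-09). The paralogues thus stood in opposite order, and neither overlapped between the populations. decr1, the reductase of the same branch, averaged 31.9 ± 44.1 CPM in SF, with 106 CPM in replicate 1 and 1.66 CPM in replicate 2, and had 139, 134, 223, 232 and 138 CPM in PC (−3.69 ± 0.58). No SF heart reached the lowest PC heart. pparab, a nuclear receptor that switches on fatty acid oxidation, averaged 11.4 ± 2.35 CPM in SF and 24.6 ± 8.67 CPM in PC (−1.94 ± 0.38). Without the factor and the 3 hearts named above its adjusted p was 0.054. lpl, lipoprotein lipase, averaged 20.8 ± 9.86 CPM in SF and 9.58 ± 4.54 CPM in PC (1.53 ± 0.41), with an adjusted p of 0.077 without the 3 hearts named above and 0.13 without SF replicate 3 and PC replicate 3. Of 36 measured genes of this list 2 were higher and 4 lower in SF with the factor (16.7%, against 6.68% of all genes). The counts were 5 and 3 without it and 2 and 3 in both fits, so the balance turned with the factor. acadvl was called only with the factor. fabp3, the heart fatty acid-binding protein, averaged 1988 ± 914 CPM in SF and 578 ± 227 CPM in PC without overlap, and was called without the factor (1.78) but not with it (0.80 ± 0.23).

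Of 30 genes of the citric acid cycle and pyruvate dehydrogenase 2 were called (6.67%, against 6.68% of all genes), both lower in SF, while without the factor 2 were higher and 2 lower. cs, citrate synthase, the entry enzyme of the cycle, had 45.4, 56.9, 52.5, 33.9 and 40.3 CPM in SF and 119, 151, 85.6, 71.6 and 112 CPM in PC (−1.52 ± 0.25, adjusted p = 4.9e-06). pdk3b, a kinase that turns off pyruvate dehydrogenase, averaged 15.4 ± 3.81 CPM in SF and 34.9 ± 8.11 CPM in PC (−1.70 ± 0.39). It was not called without the factor and the 3 hearts named above (adjusted p = 0.12). pdk4, the kinase of the same enzyme that rises in fasting, averaged 522 ± 261 CPM in SF and 201 ± 39.6 CPM in PC and was called only without the factor (1.37; 0.35 ± 0.21 with it). nmrk2, a muscle kinase that makes NAD from nicotinamide riboside, had 1444, 929, 1159, 1101 and 1040 CPM in SF and 211, 277, 342, 262 and 108 CPM in PC (1.26 ± 0.27, adjusted p = 0.0004; 2.24 without the factor).

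The respiratory chain as a whole was not called in 1 direction. Of 95 measured subunits 1 was higher and 6 lower in SF with the factor (7.37%, against 6.68% of all genes). The counts were 2 and 3 without it and 1 and 3 in both fits. The median log2 fold change was −0.32 with and 0.21 without the factor, so its sign depended on the factor. uqcrc2a, a core subunit of complex III, had 3.08, 118, 2.79, 3.63 and 1.70 CPM in SF, where replicate 2 alone was high, and 212, 225, 266, 244 and 146 CPM in PC (−3.21 ± 0.94, adjusted p = 0.017). Its call was lost without SF replicate 3, 4 or 5 (adjusted p = 0.051 to 0.054). Its paralogue uqcrc2b averaged 185 ± 28.9 CPM in SF and 142 ± 32.5 CPM in PC and was not called (0.13 ± 0.21). cox4i2, the variant of cytochrome c oxidase subunit 4 that responds to low oxygen in mammals, had 72.4, 133, 59.8, 115 and 178 CPM in SF and 235, 210, 420, 316 and 189 CPM in PC, without overlap (−1.85 ± 0.33, adjusted p = 2e-05). cox4i1l averaged 1654 ± 391 CPM in SF and 3408 ± 2086 CPM in PC, where replicate 3 reached 7030 CPM (−1.74 ± 0.29). It was not called without the factor and the 3 hearts named above (−0.66, adjusted p = 0.22). cox7a2l, an assembly factor of respiratory supercomplexes, was the 1 subunit gene higher in SF, at 13 ± 5.70 CPM, against 2.86 ± 1.88 CPM in PC (1.70 ± 0.50). cox5b2, cox8b and atp5mea were called lower only with the factor; without it their log2 fold changes were −0.10, −0.50 and −0.47. None of 11 genes of the malate-aspartate shuttle was called by edgeR with or without the factor, by DESeq2 or by limma on the deposited log2 values, and 3 had an unadjusted edgeR p under 0.05.

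**Figure D3:**
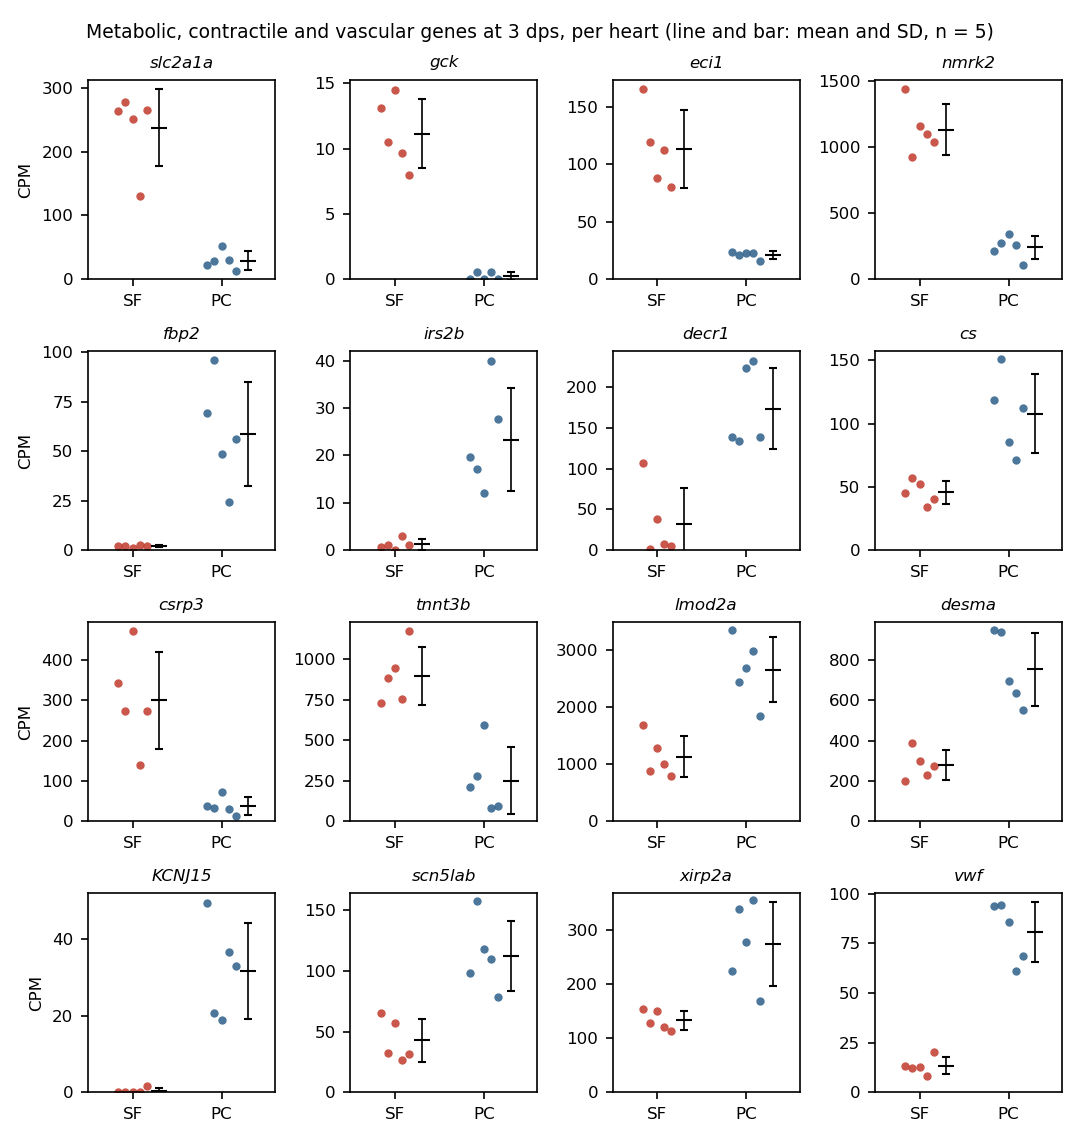
Level in CPM of 16 genes in each heart (points), for SF at left and PC at right of each panel, with mean and SD of 5 hearts; each panel has its own vertical axis from 0. The panels show genes chosen among those called on these same hearts. In 16 of 16 panels the 5 SF hearts do not overlap the 5 PC hearts, against 6.09% of all tested genes. slc2a1a, gck, eci1, nmrk2, csrp3 and tnnt3b are higher in SF and the other 10 genes lower in SF.

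Sarcomere genes were mixed as well. csrp3, the muscle LIM protein that anchors the Z-disc, had 343, 274, 470, 140 and 274 CPM in SF hearts, against 38.7, 31.9, 73.7, 30.5 and 14.1 CPM in PC hearts (2.78 ± 0.31, adjusted p = 1.1e-11; 3.00 without the factor). tnnt3b, a troponin T of fast muscle, had 730, 886, 946, 757 and 1173 CPM in SF and 210, 280, 592, 82.2 and 95.4 CPM in PC (1.70 ± 0.35). Its level in SF replicate 4, the heart with skeletal muscle transcripts, was within the range of the other SF hearts. lmod2a, leiomodin, which nucleates thin filaments, had 1683, 879, 1276, 1002 and 795 CPM in SF and 3349, 2430, 2671, 2971 and 1838 CPM in PC (−2.08 ± 0.33, adjusted p = 9.5e-07; −1.23 without the factor). desma, desmin, the intermediate filament of muscle, had 202, 389, 301, 229 and 273 CPM in SF and 949, 935, 695, 636 and 551 CPM in PC (−1.29 ± 0.23, adjusted p = 1.5e-05). ldb3b, a Z-disc protein, averaged 113 ± 31.8 CPM in SF and 247 ± 62.6 CPM in PC (−1.17 ± 0.30), and xirp2a, which ties the sarcomere to cell junctions, had 153, 128, 150, 122 and 114 CPM in SF and 225, 338, 278, 355 and 170 CPM in PC (−1.61 ± 0.20, adjusted p = 1.4e-09).

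Calls of the most abundant contractile genes were made only with the factor. cmlc1, a myosin light chain, averaged 14500 ± 4337 CPM in SF and 17700 ± 4936 CPM in PC (−1.06 ± 0.24 with and −0.29 without the factor). myh7l, a myosin heavy chain, averaged 8388 ± 1573 CPM in SF and 11604 ± 2050 CPM in PC (−1.08 ± 0.24 with and −0.47 without it). tnni1d, tnnc1b, myom1b and ckma were also called lower in SF with the factor and not without it, and all 6 genes overlapped between the populations. mb, myoglobin, the oxygen store of muscle, ran in the opposite order at 50409 ± 6722 CPM in SF and 23841 ± 6976 CPM in PC, without overlap, and was called only without the factor (1.08; 0.44 ± 0.23 with it). Of 29 measured ventricular sarcomere genes 3 were higher and 6 lower in SF with the factor (31%, against 6.68% of all genes). The counts were 3 and 1 without it and in both fits. TPM1 and tpm2, the other called genes higher in SF, were highest in SF replicate 4 at 73.8 and 179 CPM, and without that heart 1 gene of the list, csrp3, was called higher.

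Skeletal muscle markers showed the weight of that heart. Of 29 measured, 11 were called higher and 1 lower in SF with the factor (41.4%, against 6.68% of all genes). The counts were 8 and 0 without it and 7 and 0 in both fits. mylpfa, a fast myosin light chain, had 2.31, 3.31, 0, 259 and 34.1 CPM in SF and 1.68, 0, 1.26, 0.555 and 1.76 CPM in PC, and without SF replicate 4 its adjusted p was 0.059. Without that heart 2 genes of the list were called higher in SF. Besides mylpfa, pvalb4 and tnnt3b, the calls in both fits were atp2a1l, tnnc2, tnni2a.1 and a copy of myhz1.1, and those of the factor alone were myl1, tnnt3a, tnni2a.4, another myhz1.1 copy and, lower in SF, ckma.

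Genes of 2 ion channels and a channel scaffold were lower in SF. KCNJ15, an inwardly rectifying potassium channel, had 0, 0, 0, 0 and 1.70 CPM in SF and 49.4, 20.8, 18.9, 36.7 and 33.0 CPM in PC (−6.61 ± 0.67, adjusted p = 3e-13). scn5lab, a sodium channel of the cardiac action potential, had 65.4, 32.6, 57.0, 26.6 and 31.8 CPM in SF and 98.2, 157, 118, 109 and 78.7 CPM in PC (−1.98 ± 0.31, adjusted p = 9.1e-07). sptbn4b, a spectrin that clusters sodium channels in neurons, had 0.770, 0, 2.23, 1.82 and 0.568 CPM in SF and 31.4, 22.8, 23.3, 31.1 and 14.9 CPM in PC (−4.58 ± 0.57). None of these genes overlapped. Of 19 measured genes of calcium handling and excitation 1 was called higher and 2 lower in SF (15.8%, against 6.68% of all genes). The counts were the same without the factor, and the 2 lower were called in both fits. The gene higher only with the factor, casq1a of skeletal muscle, had 5.45 CPM in SF replicate 4 and at most 0.559 CPM in the other SF hearts.

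Circadian genes were called at high shares. Of 42 lists examined, the clock output factors held the highest share of called genes, 54.5%, against 6.68% of all genes. The lists and their members were chosen with earlier results of these data known, so this rank is no separate evidence. The share was 34.8% for the clock repressors and 33.3% for the activators. Of 23 measured clock repressors 5 were higher and 3 lower in SF, of 11 output factors 3 were higher and 3 lower, and all of these 14 calls were made in both fits (7 and 3 repressors and 3 and 3 output factors without the factor). nr1d1, Rev-erb alpha, which represses the activators of the clock, had 28.5, 19.3, 30.7, 39.9 and 37.5 CPM in SF hearts, against 0.561, 4.05, 1.26, 3.89 and 3.52 CPM in PC hearts (3.37 ± 0.57, adjusted p = 7.8e-06). dbpb, a PAR bZIP factor that drives daily output genes, had 106, 117, 104, 87.2 and 94.9 CPM in SF and 15.2, 34.4, 15.1, 42.2 and 26.8 CPM in PC (1.89 ± 0.39, adjusted p = 0.00026). Every SF heart was above every PC heart for both. dbpa averaged 48.9 ± 8.91 CPM in SF and 21.4 ± 5.0 CPM in PC (1.12 ± 0.29), and tefb, of the same factor family, averaged 214 ± 42.0 CPM in SF and 90.2 ± 22.2 CPM in PC (1.16 ± 0.28). per1a, a period protein of the negative limb, had 62.4, 53.6, 66.5, 70.8 and 64.8 CPM in SF and 24.7, 34.4, 47.9, 25.0 and 21.1 CPM in PC (1.11 ± 0.29, adjusted p = 0.0063), and bhlhe41, a repressor of the E-box, had 43.1, 58.6, 66.5, 56.9 and 47.2 CPM in SF and 4.49, 14.7, 23.3, 20.5 and 22.0 CPM in PC (1.61 ± 0.34, adjusted p = 0.0005). CIART, an inhibitor of the activators, averaged 29.8 ± 7.18 CPM in SF and 12.3 ± 4.87 CPM in PC (1.46 ± 0.41), and cry4, a cryptochrome, averaged 29.7 ± 6.13 CPM in SF and 12.1 ± 2.61 CPM in PC (1.19 ± 0.40, adjusted p = 0.048). The call of cry4 was lost in 9 of the 10 fits that left out 1 heart (adjusted p up to 0.096). Without SF replicate 4 and PC replicates 3 and 5, 4 repressors were called higher and 3 lower, and 2 output factors higher and 4 lower; dbpa was then not called (adjusted p = 0.067).

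Clock genes called lower in SF came from each of the clock lists. In both fits they were the activator arntl1b, ROR receptor genes counted with the output factors, and the repressors nr1d2b, cry1a and cry1b. arntl1b, a Bmal1 activator, had 3.85, 4.42, 5.03, 1.21 and 2.84 CPM in SF and 20.2, 16.7, 6.93, 24.4 and 13.6 CPM in PC (−1.82 ± 0.50, adjusted p = 0.01). The ROR receptors switch on the activators, and roraa had 16.9, 11, 10.1, 6.66 and 10.2 CPM in SF and 42.7, 39.5, 28.3, 38.3 and 25.9 CPM in PC (−1.91 ± 0.36, adjusted p = 5.5e-05). Neither of the 2 genes overlapped between the populations. rorca averaged 1.03 ± 0.652 CPM in SF and 9.74 ± 4.15 CPM in PC (−2.73 ± 0.64), and rorcb averaged 2.76 ± 0.851 CPM in SF and 17.1 ± 4.76 CPM in PC (−2.16 ± 0.54). nr1d2b, a Rev-erb beta gene, stood opposite to nr1d1 at 2.94 ± 1.54 CPM in SF and 16.7 ± 7.98 CPM in PC (−2.36 ± 0.57). cry1a averaged 31.9 ± 11.3 CPM in SF and 64.2 ± 17.4 CPM in PC (−1.27 ± 0.25), and cry1b averaged 3.35 ± 3.00 CPM in SF and 9.83 ± 4.19 CPM in PC (−1.71 ± 0.57, adjusted p = 0.045), both with overlap. The call of arntl1b was lost without PC replicate 4 (adjusted p = 0.068), and that of cry1b in 6 of the 10 fits that left out 1 heart (adjusted p up to 0.14). cry1a was under 2-fold without the factor and the 3 hearts named above (−0.94). Of 6 measured activators 2 were called lower in SF with the factor, arntl1b and clocka, and 2 without it. Only arntl1b was called in both fits. clocka was not read in SF and averaged 1.06 ± 0.895 CPM in PC. The time of day at which each heart was taken is not given, and time of day and population cannot be told apart.

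**Figure D4:**
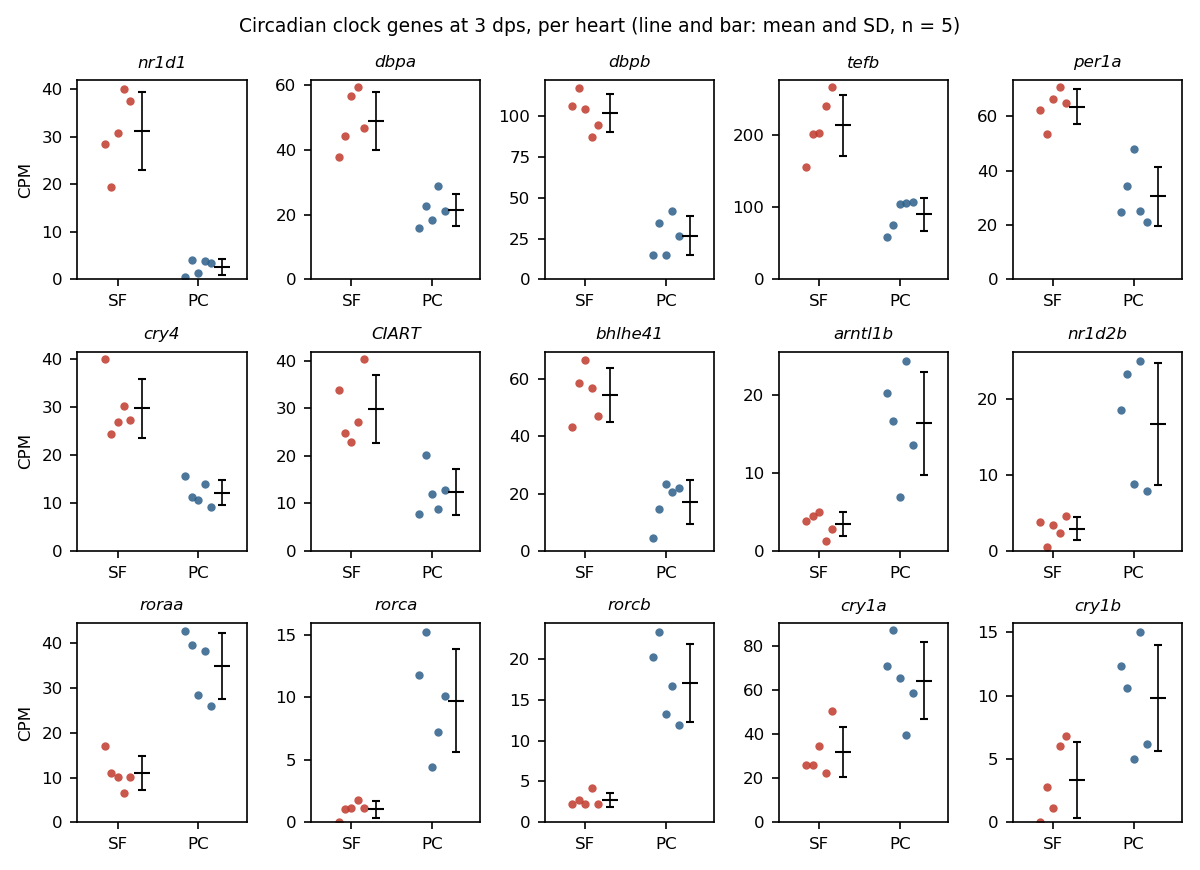
Level in CPM of 15 called clock genes in each heart at 3 dps (points), SF at left and PC at right of each panel, with mean and SD of 5 hearts and an own vertical axis from 0. The first 8 panels (nr1d1 to bhlhe41) show genes higher in SF and the last 7 (arntl1b to cry1b) genes lower in SF, with overlap between the populations only for cry1a and cry1b.

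Glucocorticoid targets were called in both directions. klf9, a transcription factor induced by cortisol, had 19.2, 22.7, 25.1, 53.9 and 52.3 CPM in SF and 12.3, 12.7, 8.19, 22.8 and 20.7 CPM in PC (1.82 ± 0.38, adjusted p = 0.00029), and glula, glutamine synthetase, averaged 119 ± 37.4 CPM in SF and 43.3 ± 28.7 CPM in PC (1.75 ± 0.39). Both overlapped. mt2, a metallothionein that binds zinc and copper, had 42.3, 56.4, 56.4, 58.7 and 57.4 CPM in SF and 78.6, 81.5, 261, 99.97 and 116 CPM in PC (−1.68 ± 0.33, adjusted p = 0.00014), and without the 3 hearts named above its adjusted p was 0.051. fkbp5, a classic target that restrains the glucocorticoid receptor, had 342, 320, 312, 419 and 427 CPM in SF and 158, 139, 190, 205 and 264 CPM in PC. Its hearts did not overlap, but its log2 fold change of 0.81 ± 0.26 stayed under 2-fold (adjusted p = 0.033). Of 21 measured targets 3 were higher and 2 lower in SF (23.8%, against 6.68% of all genes). Among the higher ones was per1a, and among the lower ones cebpd, called only with the factor. Without the factor the counts were 4 and 2 and in both fits 3 and 1, and the median of the list was −0.43 (−0.29 without the factor).

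The balance of calls among matrix genes turned with the factor, and most of the calls higher in SF were lost without it. sparc, a collagen-binding glycoprotein, had 637, 752, 696, 628 and 907 CPM in SF and 411, 478, 251, 280 and 354 CPM in PC (1.45 ± 0.29, adjusted p = 0.00012). dcn, decorin, which spaces collagen fibrils, had 488, 466, 606, 428 and 760 CPM in SF and 292, 338, 272, 290 and 324 CPM in PC (1.11 ± 0.21), with a fold under 2 without SF replicate 5 (0.97) and without the factor (0.86). Neither overlapped. The type I collagen genes col1a1b and col1a2 averaged 460 ± 71.5 and 501 ± 96.8 CPM in SF and 241 ± 123 and 316 ± 153 CPM in PC, with overlap, and were called only with the factor (1.75 ± 0.36 and 1.38 ± 0.36; adjusted p = 0.054 for col1a2 without the 3 hearts named above). col18a1b, a basement membrane collagen, averaged 24.1 ± 4.13 CPM in SF and 10.7 ± 4.34 CPM in PC (1.41 ± 0.43). fbln1, fibulin 1, ran the other way, at 29.3, 12.2, 12.9, 34.5 and 7.39 CPM in SF and 85.3, 210, 100, 85 and 89.3 CPM in PC (−2.56 ± 0.53, adjusted p = 0.00029). Of 56 measured matrix genes 7 were higher and 1 lower in SF with the factor (14.3%, against 6.68% of all genes). The counts were 2 and 3 without it and 2 and 1 in both fits, with col12a1a and col8a1b among those of the factor alone. The list median was 0.78 with the factor and 0.31 without it. The count of higher genes was 3 without SF replicate 5 and 4 without PC replicate 4, and 0 without the factor and the 3 hearts named above. Of 43 metalloproteinases and inhibitors 2 were higher (mmp14a, adamts15a) and 2 lower (adamts1, timp2a), a share of 9.3% against 6.68% of all genes. In the fit without the factor 1 was higher and 2 lower, and adamts1 alone was called in both fits.

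Of 19 measured endothelial markers 2 were called (10.5%, against 6.68% of all genes), and vwf alone was called in both fits. All SF hearts were above all PC hearts for 4 of the 19 and below them for 1, vwf, whereas 6.09% of all genes had no overlap. vwf, von Willebrand factor, which endothelial cells store for clotting, had 13.1, 12.2, 12.9, 8.47 and 20.5 CPM in SF and 93.7, 94.2, 85.6, 61.1 and 68.6 CPM in PC (−2.40 ± 0.45, adjusted p = 5e-05). The other called gene of 19 endothelial markers, the junction protein cdh5, averaged 175 ± 53.1 CPM in SF and 110 ± 13.5 CPM in PC and was called higher in SF only with the factor (1.18 ± 0.27). The summed endothelial markers, 639 to 788 CPM in SF and 585 to 813 CPM in PC, overlapped.

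Stress proteins and antioxidants differed gene by gene. hspb6, a small heat shock protein of muscle, had 6.16, 35.9, 38.0, 24.8 and 23.9 CPM in SF and 2.81, 2.53, 0.630, 3.33 and 4.40 CPM in PC (4.38 ± 0.62, adjusted p = 6e-08). serpinh1a, the collagen chaperone HSP47, averaged 60.6 ± 8.51 CPM in SF and 28.7 ± 16 CPM in PC (1.65 ± 0.36). Its adjusted p was 0.06 without the factor and the 3 hearts named above. hspa8b, a constitutive HSP70, averaged 9.99 ± 4.77 CPM in SF and 31.0 ± 14.0 CPM in PC (−2.0 ± 0.45), and its co-chaperone gene dnajb1b averaged 5.30 ± 1.92 CPM in SF and 16.2 ± 4.10 CPM in PC (−1.67 ± 0.46). dnaja1 was higher in SF (1.09 ± 0.37, adjusted p = 0.044), and its call was lost in 6 of the 10 fits that left out 1 heart. The call of dnajb1b was lost without the 3 hearts named above (adjusted p = 0.072). Of 34 measured chaperones 4 were higher and 3 lower in SF with the factor (20.6%, against 6.68% of all genes). The counts were 3 and 4 without it and 3 and 2 in both fits. serpinh1b and hsp90aa1.2 were called only with the factor. gpx3, a secreted glutathione peroxidase, had 0.770, 1.1, 1.68, 0.605 and 3.41 CPM in SF and 25.8, 22.3, 29.0, 22.2 and 16.3 CPM in PC, without overlap (−4.21 ± 0.57, adjusted p = 1.1e-08). GSTO2, a glutathione transferase, had 83.9, 43.1, 64.8, 35.7 and 61.9 CPM in SF and 16.8, 12.2, 26.4, 22.2 and 8.79 CPM in PC, also without overlap (1.82 ± 0.34). Of 52 antioxidant genes 3 were higher and 3 lower with the factor (11.5%, against 6.68% of all genes). The counts were 2 and 4 without it and 1 and 3 in both fits. sod3b and mt2 were the other lower genes, and hmox1a and prdx1 were called only with the factor. Among 29 genes of hypoxia signalling (17.2% called, against 6.68% of all genes), epor was higher and bnip3 lower in SF in both fits. bnip3lb, ndrg1a and vegfaa were called only with the factor (1 higher and 2 lower without it). Calls of both bnip3 and vegfaa were lost without SF replicate 2, 4 or 5.

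Genes of blood and immune cells depended on single hearts. HBE1, a beta globin gene and 1 of 7 with this symbol, had 11.5, 6.63, 11.2, 24.2 and 15.9 CPM in SF and 72.4, 58.7, 9903, 13.3 and 42.6 CPM in PC. Its log2 fold change was −8.20 ± 1.40 (adjusted p = 7.9e-06), and without PC replicate 3 it was −2.73 (adjusted p = 0.20). A neighbouring copy at 374948 to 378983 of the same scaffold had 4.62, 5.52, 8.94, 9.08 and 6.25 CPM in SF and 219, 263, 6644, 7.22 and 36.5 CPM in PC (−9.23 ± 1.33, and −5.71 without PC replicate 3). A further copy there, of higher level, averaged 19672 ± 15013 CPM in SF and 10012 ± 14869 CPM in PC and was not called (0.87 ± 0.66). Of 14 erythrocyte markers 3 were called higher in SF (rhag, slc4a1a, hemgn), a share of 21.4% against 6.68% of all genes. rhag alone was called in both fits (4 higher and 1 lower without the factor). The count with the factor was 0 without SF replicate 4 and 7 without PC replicate 3. Macrophage markers gave 7 of 19 higher in SF with the factor (36.8%, against 6.68% of all genes). The counts were 2 of 19 without it and 1 of 19 in both fits. grn1, a progranulin gene, had 207, 381, 306, 91.4 and 288 CPM in SF and 245, 89.1, 24.6, 18.9 and 1101 CPM in PC, where replicate 5 exceeded all other hearts, and its log2 fold change was 3.00 ± 0.59 with and −0.22 without the factor. MFAP4, the macrophage-list gene called in both fits, had 1.54, 291, 146, 20.6 and 171 CPM in SF and 15.7, 0.506, 1.26, 3.33 and 47.9 CPM in PC, with overlap (6.10 ± 0.98). c1qc had 234, 318, 210, 189 and 231 CPM in SF and 190, 119, 120, 76.1 and 502 CPM in PC, and csf1rb, ctss2.1, grna and c1qb were called only with the factor as well.

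Some abundant genes of other roles were called as well. itm2ba, a membrane protein of the BRICHOS family, had 1123, 716, 868, 808 and 766 CPM in SF and 278, 308, 426, 220 and 236 CPM in PC, without overlap (1.16 ± 0.16, adjusted p = 2.2e-08). ppdpfa averaged 1189 ± 557 CPM in SF and 331 ± 96.6 CPM in PC (1.01 ± 0.28), and it was not called without SF replicate 1 (0.92), SF replicate 2 (0.76) or PC replicate 3 (0.83). ctsl.1, a cathepsin L and 1 of 16 genes with this symbol, had 149, 597, 2647, 3179 and 1426 CPM in SF and 238, 92.2, 315, 81.6 and 38.3 CPM in PC (3.19 ± 0.67), and CBLN3, a C1q domain gene, had 72.4, 1772, 40.8, 120 and 340 CPM in SF and 7.30, 1.01, 0.630, 3.89 and 46.6 CPM in PC (7.78 ± 1.12); both overlapped. pfn1, profilin, which feeds actin filaments, averaged 1022 ± 134 CPM in SF and 1096 ± 1201 CPM in PC, where replicate 5 had 3225 CPM, and its sign turned without the factor (1.01 ± 0.28 with and −0.10 without it). The call of pfn1 was also lost without SF replicate 1 or PC replicate 1, 2, 3 or 4 (0.76 to 0.99). NME2, a nucleoside diphosphate kinase, averaged 3701 ± 510 CPM in SF and 5717 ± 2347 CPM in PC and was called only with the factor (−1.07 ± 0.20).

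Several lists held few or no calls. None of 87 cytosolic ribosomal protein genes was called by edgeR, DESeq2 or limma, although 47 had an unadjusted edgeR p under 0.05, with a list median of −0.36 (−0.03 without the factor). Of 46 proteasome genes 1 was called (2.17%, against 6.68% of all genes), psmd2, only with the factor. Of 32 genes of DNA replication and mitosis stmn1b was called lower in SF (3.12%, against 6.68% of all genes). None of 11 measured genes from a list of candidates for cave traits was called by edgeR with the factor, by DESeq2 or by limma, 1 was called lower without the factor, and 4 had an unadjusted p under 0.05 (list median 0.24, and 0.00 without the factor). Of 9 cardiac stress genes ankrd1a was higher, at 3.69 ± 3.10 CPM in SF and 0.111 ± 0.248 CPM in PC (4.51 ± 1.2), and xirp2a lower, a share of 22.2% against 6.68% of all genes. Of the remaining marker lists, galn and stmn2b, both known from neurons, were the called nerve and glia genes, aldh1a2, col1a2 and dcn the epicardial ones, f13a1b the thrombocyte one and nccrp1 the neutrophil one, the last 5 only with the factor. No marker of atrial cells (of 5), hepatocytes (of 16), pigment cells (of 11) or thymus and gill (of 8) was called by edgeR with the factor, by DESeq2 or by limma, and 0, 1, 3 and 3 of them had an unadjusted edgeR p under 0.05. Without the factor 1 pigment cell marker was called lower and 1 thymus and gill marker higher in SF.

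In each of the other conditions most genes called at 3 dps had the same sign, and a smaller share was called again. These conditions used other fish, and their libraries share the model and its factor with the 3 dps hearts. Among all tested genes, 5.78% were called in uninjured hearts, 6.36% (6 hps) and 7.39% (1 dps) in the sham conditions, and 6.92% (6 hpci), 7.92% (1 dpci), 6.44% (3 dpci), 5.38% (7 dpci), 7.88% (14 dpci) and 6.68% (30 dpci) in the cryo-injured ones. Of the 1254 genes called at 3 dps, 1205 had the same sign at 1 dps and 600 were called there in the same direction, against 1128 and 393 in uninjured hearts, where n = 3 SF and 3 PC. At 3 dpci the numbers were 1204 and 582. The share with the same sign over all tested genes was not counted. The share called again ran from 31.3% in uninjured hearts to 47.8% at 1 dps over the 9 conditions, and 0 to 15 genes per condition were called in the opposite direction. Calls in all 9 other conditions were found for 133 genes (116 of the 769 called in both fits), and in none of them for 236 (131 of the 769). Among the named genes, those called in the same direction in all 9 included mhc2b, HLA-DQA2, slc2a1a, gck, csrp3, akr1b1.1, nkl.3, galn, ptgdsb.1 and IL22RA2. They also included KCNJ15, adipoqb, fbp2, gpx3, eci2, decr1, cox4i2, xirp2a, fbln1, BTN2A1, sult1st2, tdrd1 and both ENDOD1 copies described above. The clock genes dbpb, bhlhe41, nr1d1 and per1a were not among them, and were called in the 3 dps direction in 3, 3, 4 and 1 of the 9.

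**Figure D5:**
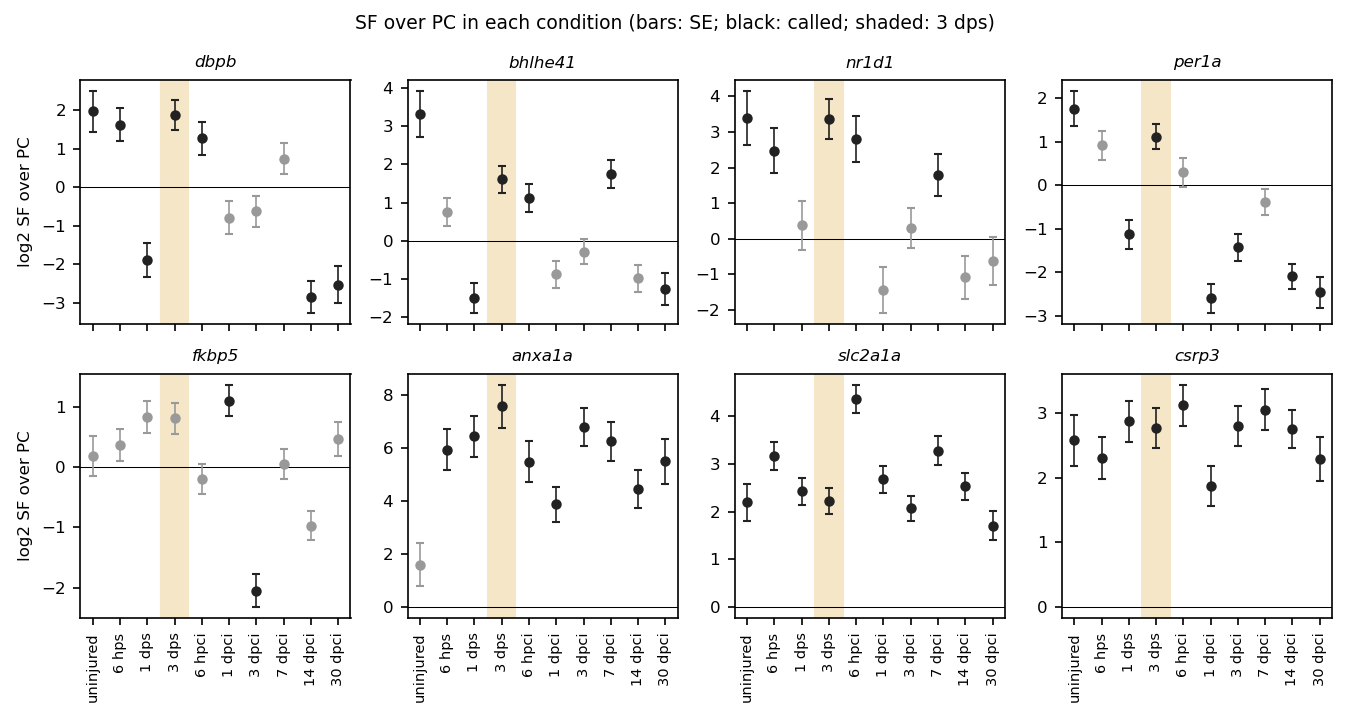
Log2 fold change SF over PC of 8 genes in each of 10 conditions (points with standard error; black points were called, grey points were not; the shaded column is 3 dps). dbpb, bhlhe41, nr1d1 and per1a are above 0 at 3 dps and in uninjured hearts and below 0 at 1 dps and 3 dpci except nr1d1 (0.37 and 0.30), whereas slc2a1a and csrp3 are above 0 throughout.

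The 3 comparisons of the SF over PC ratio between times that follow share the 3 dps hearts. The time of day of collection is not given for any condition, so for clock genes it and the condition cannot be told apart. Differences in the ratio between 3 dps and 1 dps were called for 73 genes (0.389%), 17 higher (0.0906%) and 56 lower (0.298%) at 3 dps, with 56 in both fits. dbpb led the higher ones. At 1 dps it averaged 9.12 ± 5.16 CPM in SF and 33.1 ± 8.41 CPM in PC, the reverse of the order at 3 dps, and the ratio differed by 3.77 ± 0.50 on the log2 scale (adjusted p = 1.1e-07). bhlhe41 averaged 7.71 ± 2.78 CPM in SF and 20.9 ± 3.29 CPM in PC at 1 dps (3.10 ± 0.45, adjusted p = 1.5e-06). per1a averaged 12.8 ± 3.99 CPM in SF and 29.3 ± 7.94 CPM in PC (2.25 ± 0.37, adjusted p = 5.5e-05). The SF mean of dbpb was thus 9.12 CPM at 1 dps and 102 CPM at 3 dps, whereas its PC mean was 33.1 and 26.7 CPM. prelp, a small proteoglycan of connective tissue, averaged 4.37 ± 2.11 CPM in SF and 15.7 ± 5.43 CPM in PC at 1 dps and 23.2 ± 5.6 CPM in SF and 9.23 ± 2.61 CPM in PC at 3 dps (3.17 ± 0.52, adjusted p = 5.1e-05). asb12b, a muscle substrate receptor of ubiquitin ligases, differed by 2.32 ± 0.52 (adjusted p = 0.015), and cyp27c1, a retinoid desaturase, by 2.55 ± 0.66 (adjusted p = 0.049). The call of cyp27c1 was lost without the factor (adjusted p = 0.066) and in 8 of the 10 fits that left out 1 heart. The genes of largest change in the other direction mostly rested on few reads or 1 heart of the 3 dps groups. The HBE1 copy at 374948 to 378983 (−8.66) was lost without PC replicate 3 (adjusted p = 0.12), and the chemokine receptor ccr12b.2 (−6.13) and the lipid droplet gene cidec (−5.66) without PC replicate 5 (adjusted p = 0.34 and 0.84). plxna3, a semaphorin receptor (−8.35), was not read in SF at 3 dps, averaged 2.13 ± 1.88 CPM in PC, and was not called without SF replicate 3 or 5 or PC replicate 5 (adjusted p = 0.052 to 0.057). birc5a, survivin (−6.31), averaged 2.29 ± 2.30 CPM in SF and 1.26 ± 1.23 CPM in PC, and was not called without PC replicate 1 or 3 (adjusted p = 0.052 and 0.10). Leaving out 1 heart of the 3 dps groups gave 48 (without SF replicate 5 or PC replicate 5) to 85 calls. No heart of the 1 dps groups was left out. Without the 3 hearts rich in markers of other cells, 29 differences were called.

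Against uninjured hearts, 94 genes (0.501%) differed in their ratio, 37 higher (0.197%) and 57 lower (0.304%) at 3 dps, with 63 in both fits. fosab, a subunit of AP-1 that is switched on within minutes of stimulation, averaged 3.26 ± 1.55 CPM in SF and 13 ± 6.21 CPM in PC at 3 dps and 21.9 ± 3.69 CPM in SF and 4.16 ± 1.46 CPM in PC in uninjured hearts (−4.29 ± 0.89, adjusted p = 0.0037). nr4a1, an orphan receptor of the same kind, averaged 7.94 ± 2.79 CPM in SF and 22.9 ± 15.3 CPM in PC at 3 dps and 70.7 ± 50.4 CPM in SF and 6.11 ± 5.94 CPM in PC in uninjured hearts (−5.07 ± 0.83, adjusted p = 5.7e-05). For both, the SF mean was below the PC mean at 3 dps and above it in the uninjured hearts, which were of other fish. adam19b, a membrane protease, differed by −5.47 ± 0.83 (adjusted p = 1.3e-05), and mfsd2ab, a transporter of lysolipids, by −4.61 ± 0.92 (adjusted p = 0.0021). In the higher direction, anxa1a averaged 79.2 ± 33.6 CPM in SF and 33.5 ± 48.7 CPM in PC in uninjured hearts and differed by 5.99 ± 1.04 (adjusted p = 0.0002). zbtb16b, a zinc finger repressor that responds to glucocorticoids in mammals, averaged 12.6 ± 4.66 CPM in SF and 2.82 ± 2.32 CPM in PC at 3 dps and 5.13 ± 2.64 CPM in SF and 19.6 ± 7.65 CPM in PC in uninjured hearts (4.2 ± 0.73, adjusted p = 0.0002). serpinh1b differed by 4.25 ± 0.87 (adjusted p = 0.0033) and the splicing factor srsf9 by 6.86 ± 1.61 (adjusted p = 0.019), which had no read in uninjured SF hearts. tnnt1, a slow troponin T, rested on SF replicate 4 (6.02; adjusted p = 0.37 without it), and TNFRSF6B, a decoy receptor, on PC replicate 5 (−4.47; adjusted p = 0.21 without it, 0.053 without SF replicate 2 and 0.057 without SF replicate 4). Leaving out 1 heart of the 3 dps groups gave 63 (without SF replicate 2) to 144 calls (without PC replicate 3). No uninjured heart was left out, so dependence on a single one of these was not tested.

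Between sham and cryo-injured hearts of the same day, 22 genes (0.117%) differed in their ratio, 17 higher (0.0906%) and 5 lower (0.0266%) at 3 dps than at 3 dpci, with 18 in both fits. fkbp5 averaged 364 ± 55.0 CPM in SF and 191 ± 48.2 CPM in PC at 3 dps and, at 3 dpci, 21.5 ± 6.99 CPM in SF and 83.2 ± 37.3 CPM in PC (2.86 ± 0.33, adjusted p = 1.1e-09). hsd11b2, which inactivates cortisol, averaged 8.42 ± 3.38 CPM in SF and 15.2 ± 6.65 CPM in PC at 3 dps and, at 3 dpci, 1.26 ± 0.826 CPM in SF and 15.6 ± 6.04 CPM in PC (2.78 ± 0.65, adjusted p = 0.042). At 3 dpci, per1a averaged 7.88 ± 3.05 CPM in SF and 21.8 ± 5.95 CPM in PC, the reverse of its order at 3 dps (2.54 ± 0.38, adjusted p = 1.2e-05), and dbpb averaged 11.2 ± 6.18 CPM in SF and 16.8 ± 5.32 CPM in PC (2.51 ± 0.49, adjusted p = 0.0046). nr1d1, tefb, dbpa, bhlhe41 and CIART were also higher at 3 dps than at 3 dpci by log2 differences of 3.07, 1.68, 1.94, 1.90 and 2.37 (adjusted p = 0.047, 0.0082, 0.0017, 0.025 and 0.027). The calls of nr1d1 and hsd11b2 were lost in 6 and 5 of the 10 fits that left out 1 heart (adjusted p up to 0.12 and 0.10). In the lower direction, nfe2l1a, a stress-response factor of the endoplasmic reticulum, averaged 4.17 ± 2.57 CPM in SF and 31.4 ± 5.88 CPM in PC at 3 dps and, at 3 dpci, 9.74 ± 3.06 CPM in SF and 14.3 ± 2.64 CPM in PC (−2.35 ± 0.48, adjusted p = 0.0063; 0.079 without the 3 hearts named above). lmod2a (−1.81 ± 0.39) and mt2 (−1.74 ± 0.40) were called with the factor but not without it (adjusted p = 0.12 and 0.081), nor without SF replicate 5 (adjusted p = 0.054 and 0.072) or, for mt2, without SF replicate 1 or 3 or PC replicate 3 (adjusted p up to 0.24), and the HBE1 copy at 374948 to 378983 (−8.27) was lost without PC replicate 3 (adjusted p = 0.14). Leaving out 1 heart of the 3 dps groups gave 12 (without PC replicate 3) to 35 calls (without PC replicate 5). No heart of the 3 dpci groups was left out.

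Calls were spread over the genome. Of 13954 tested genes on the assembled chromosomes of Mexican tetra 2.0, 951 were called (6.82%), and of 4809 genes on unplaced scaffolds 303 (6.30%). By chromosome the share ran from 5.49% on chromosome 19 to 9.39% on chromosome 8. Gene models that the authors had extended gave 562 calls of 7961 (7.06%) and the other models 692 of 10802 (6.41%).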

How the data were processed

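Lexogen QuantSeq 3′ FWD libraries of single ventricles were sequenced on an Illumina HiSeq. Per the labels and methods, the authors used bcl2fastq 2.20.0, trimmed reads with Trim Galore 0.6.4, aligned and counted them with STAR 2.7.6a on Mexican tetra 2.0 with a customized Ensembl 103 annotation, and deposited 1 raw count per gene and library. Use of strand and of reads that match several genes is not given in the sources used here. The authors also deposited regularized log2 values, of which the 3 dps columns served as an alternative, and 86 other columns were not used.

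Counts of all 96 libraries in 20 groups were fitted in edgeR 4.0.16 (R 4.3.3) by the quasi-likelihood test with TMM scaling and 1 RUVg factor, whose control genes had a coefficient of variation under the median. The study's methods name DESeq2 with RUVg and do not state the number of factors. The tests covered the 18763 of 27420 genes that reached 1 CPM in 1 or more libraries, and p-values were adjusted over all of them by the Benjamini-Hochberg method. Differences of the SF over PC ratio between conditions were contrasts of the same fit. Total counts of 1597237 to 2276038 per library make 1 read worth 0.440 to 0.770 CPM.

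The 42 gene lists and the members were chosen with earlier results of these data known. Named are the 12 largest calls per direction with non-overlapping hearts and at least 10 CPM, the 10 most abundant calls per direction, called list members, and the 5 largest differences per contrast and direction, each with a plain gene symbol; other genes are named only as contrasts. Alternatives were other factors, samples, tools (DESeq2 1.42.0, limma 3.58.1), scalings, filters, depths and left-out libraries. Only libraries of the 3 dps groups were left out. Leaving out the 3 hearts rich in other cell markers, limma on the log2 values, and all leave-outs without the factor were chosen after seeing the data. The scripts were tested on simulated data. Figures were drawn with Python 3.11.15 and matplotlib 3.10.9.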

Additional observations from a re-analysis of the deposited data

Results flagged for a closer look

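Of 216 sets of 5 hearts examined gene by gene, 37 held 1 heart whose gap to the next exceeded 0.71 of the range of its group. This limit was made for normally distributed values. CPM values need not follow that distribution, and the genes were chosen on these same hearts, so the rate by chance is not known here. Over genes and library measures, 15 such values were of PC replicate 5, 7 of PC replicate 3 and 7 of SF replicate 4.

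In PC replicate 5 the highest values of the PC group were 3225 CPM for pfn1, 46.6 for CBLN3, 93.2 for glula, 107 for c1qb, 502 for c1qc, 1101 for grn1, 5785 for fn1a (fibronectin), 166 for TNFRSF6B, 61.1 for ccr12b.2 and 129 for cidec, and eci1 was lowest at 15.4 CPM. Summed markers were also highest there, at 5942 CPM for macrophages, 25228 CPM for adipocytes, 328 CPM for thrombocytes and 66.8 CPM for pigment cells. In PC replicate 3 the highest values were those of 3 HBE1 globin genes at 9903, 6644 and 36205 CPM, cox4i1l at 7030 CPM, mt2 at 261 CPM, the summed erythrocyte markers at 102514 CPM and the share of the 10 most abundant genes at 20.2%. In SF replicate 4 the highest were tpm2 at 179, TPM1 at 73.8, mylpfa at 259, pvalb4 at 416 and tnnt1 at 44.2 CPM and the summed atrial markers at 216 CPM, and slc2a1a was lowest at 131 CPM.

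Single values of other hearts also stood apart. SF replicate 1 was highest for mhc2b (the copy that was not called) at 18.5, rsad2 at 86.2, NME2 at 4596, atp5mea at 907 and pdk4 at 981 CPM and for the RUVg factor at 0.0740, and lowest for mt2 at 42.3 CPM, ccl25b at 73.1 CPM and the number of genes with a read, 11976. SF replicate 2 was highest for CBLN3 at 1772 CPM and uqcrc2a at 118 CPM. SF replicate 5 was highest for the uncalled anxa1a copy at 206 CPM and cyp27c1 at 16.5 CPM. PC replicate 2 was highest for acadvl at 641, fbln1 at 209.7 and mhc1uba at 21.8 CPM, and PC replicate 4 for the uncalled HLA-DQA2 copy at 184 CPM.

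The SF over PC ratio at 3 dps differed from that in uninjured hearts, by the test of the difference itself, for srsf9 (6.86 on the log2 scale), tnnt1 (6.02), anxa1a (5.99), serpinh1b (4.25), zbtb16b (4.2), adam19b (−5.47), nr4a1 (−5.07), mfsd2ab (−4.61), TNFRSF6B (−4.47) and fosab (−4.29). It differed from that at 1 dps for dbpb (3.77), prelp (3.17), bhlhe41 (3.10), cyp27c1 (2.55), asb12b (2.32), the HBE1 copy at 374948 to 378983 of its scaffold (−8.66), plxna3 (−8.35), birc5a (−6.31), ccr12b.2 (−6.13) and cidec (−5.66). It differed from that at 3 dpci for nr1d1 (3.07), fkbp5 (2.86), hsd11b2 (2.78), per1a (2.54), dbpb (2.51), the same HBE1 copy (−8.27), nfe2l1a (−2.35), lmod2a (−1.81) and mt2 (−1.74).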

How the results depend on the processing

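The 1254 calls at 3 dps became 678 with 2 RUVg factors, 12 with 1 factor estimated on only the 10 hearts and 402 with limma on the deposited log2 values. The other settings without a left-out heart gave 1063 to 1542 calls, and leaving out 1 heart gave 1059 to 1381 (1037 to 1302 without the factor). Differences from uninjured hearts (94) became 265 with DESeq2, 169 with the filter of at least 10 counts in 5 libraries, 53 without the factor and SF replicate 4 and PC replicates 3 and 5, and 63 to 144 without 1 heart (48 to 94 without the factor, with 59 and 61 among them). Those from 1 dps (73) became 122 with DESeq2, 121 with a filter of 1 read, 29 and 26 without the same 3 hearts with and without the factor, and 48 to 85 without 1 heart (37 to 76 without the factor, with 39, 44 and 46 among them). Those from 3 dpci (22) became 42 with DESeq2, 38 with a filter of 1 read, 12 without SF replicate 3 and PC replicate 3, 12 without the 3 hearts and the factor, and 12 to 35 without 1 heart (14 to 27 without the factor). The cause of these moves was not tested.

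Of 110 genes named at 3 dps, 88 kept direction and side of the threshold without the factor, 66 with 2 factors, 109 with DESeq2, 14 with 1 factor estimated on the 10 hearts and 93 without the 3 hearts. The number was 73 without the 3 hearts and the factor, and 63 with limma on the deposited log2 values. Log2 fold changes that reversed were, with 2 factors, myh7l (0.0364), ckma (0.18) and ldb3b (0.28). With 1 factor on the 10 hearts they were rsad2 (−2.22), pfn1 (−1.82), galn (2.22), cry1b (1.3), rorca (0.43), uqcrc2a (0.67), pfkpa (−0.75), fabp3 (−0.17), pdk4 (−0.16), ldb3b (0.84), desma (0.17), c1qb (−1.15), c1qc (−0.31) and grn1 (−0.34). Without the factor they were pfn1 (−0.10), c1qb (−0.0188) and grn1 (−0.22), and in a fit of only the 10 hearts without it pfn1 (−0.075) and grn1 (−0.18). cox5b2 reversed with the filter of 10 counts (0.0879) and without the factor and the 3 hearts (0.11), and pdk4 with the filter of 1 read (−0.23).

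Replicate numbers did not pair the hearts: deviations of same-numbered SF and PC hearts correlated at −0.185 to 0.109 over 5709 genes, and 1 of 5 SF hearts correlated best with its own number. A fit of the 10 hearts with the replicate number as a block called 1161 genes and reversed no named gene. At these depths a gene under 3 reads per library, such as clocka or plxna3 in SF, is only bounded, and intervals of low genes are wide.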
